A study of Coccomyxa subellipsoidea C-169 with 6 samples.

Results

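The 10 genes described here carry protein names of the flagellum, or cilium, in the green alga Coccomyxa subellipsoidea C-169. They are a fixed set of 10 locus tags out of 9490 genes with counts, and their product names are a flagellar outer dynein arm heavy chain beta, an outer arm dynein light chain 1, a deflagellation inducible protein, 2 enkurin domain proteins, an IFT122 homolog of intraflagellar transport and 4 flagellar associated proteins. Messenger RNA was counted in 6 libraries of stationary-phase cultures collected 3 hours before dark. The 3 libraries with the genotype label of an overexpressor of CsubMADS1 are called OX-labelled, and the 3 others come from wild type (WT) of the same strain. The labels' protocol speaks of 3 biological replicates a group. No source used here gives the promoter, the construct or the number of lines behind the OX-labelled cultures, so a difference particular to 1 line cannot be told apart from an effect of the labelled gene.

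A motile cilium is built on microtubule doublets that grow from a basal body. Outer dynein arms are motors on these doublets that drive the beat, and intraflagellar transport carries building material along them. Coccomyxa is a coccoid alga that divides by autospores and is known without flagellate cells, so the levels of such genes are of interest in themselves. The set was chosen by product name with the OX-labelled against WT levels of these libraries known, so its differences between the OX-labelled and WT libraries are given as a description. No p-value is given for its members, and calls of the fit over all genes are only counted for them, beside the share of all genes. Other genes of the cilium, of microtubules and of gametes and meiosis were listed by name patterns and tested in that fit. Those lists were also drawn up with earlier results of these libraries known, so their counts are no independent support and stand beside the share of all genes too.

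The labels could not be checked on the targeted gene, because no source used here ties CsubMADS1 to a locus tag. The files list 2 genes with product names of the MADS family. COCSUDRAFT_67545, a MADS-box domain-containing protein, had 68.5, 59.0 and 54.8 CPM (counts scaled to the library total and a TMM factor) in OX-labelled replicates 1 to 3, against 95.3, 80.2 and 85.0 CPM in WT replicates 1 to 3 (log2 fold change -0.51, SE 0.18, edgeR adjusted p = 0.0535). Its sign was the same under 12 alternative settings, with edgeR, DESeq2 or limma adjusted p of 0.0295 to 0.168, and in 4 of them (DESeq2 size factors, library size only, no filter, DESeq2 Wald test) it passed as lower. COCSUDRAFT_16128, named myocyte enhancer factor 2D, had 17, 15 and 18 counts in OX-labelled replicates 1 to 3, against 12, 9 and 7 counts in WT replicates 1 to 3, and did not pass (log2 fold change 0.86, SE 0.39, edgeR adjusted p = 0.128). Every direction below is that of the labels, and all would turn if the labels of both groups were exchanged. Whether reads of a transgene would be counted on either locus was not tested. Library totals ran from 3862791 to 5336375 counts in the OX-labelled libraries and from 3771499 to 4953851 in WT. A count of 3 in a single library stood for 0.588 to 0.759 CPM. The floor used here was 3 counts summed over the libraries of a group, which is a lower level in CPM. A second principal component, with 19.6% of the variance, set OX-labelled replicate 3 apart.

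The dynein heavy chain and 1 of the enkurin domain genes were far apart between the groups, and the 8 others differed less than 2-fold in the fit. The log2 fold changes of these 8, OX-labelled over WT, lay between 0.093 and 0.89. All 10 genes passed the filter on low counts. All 10 fitted values were above 0, where 4269 of all 8575 tested genes were. The median of the 10 was 0.44, where that of all tested genes was -0.0028. COCSUDRAFT_14688 (3, 5 and 10 counts in WT replicates 1 to 3) and COCSUDRAFT_16080 (2, 0 and 0) passed the filter only through the OX-labelled libraries. The sign of these 2 genes is thus no separate result. Of the 10, 3 passed an adjusted p under 0.05 in edgeR as higher in the OX-labelled libraries, where 15.6% of all tested genes did. None passed as lower, where 8.98% of all tested genes did. The count was also 3 without OX-labelled replicate 3, where 18.9% of tested genes passed as higher. The OX-labelled libraries were all above the WT libraries for 5 of the 10, where 23.1% of all tested genes were, and all below them for none, where 19.8% were. These counts come from the contrast that was known when the set was made, so nothing is read from them. In bulk RNA, a change in the number of cells that express a gene and a change in RNA per cell cannot be told apart.

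**Figure D1:**
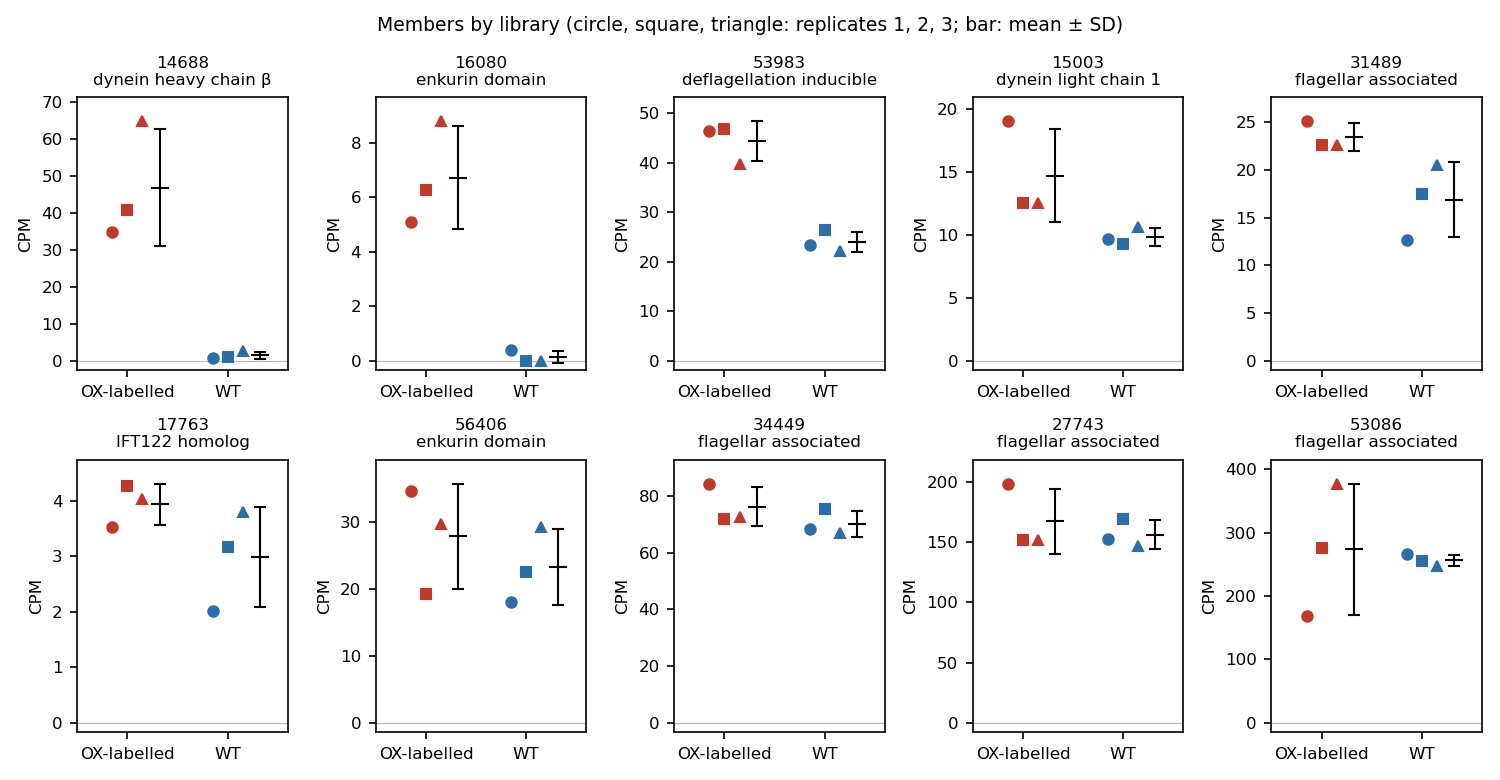
Level of each of the 10 cilium-named genes (CPM, vertical axis) in the OX-labelled (red) and WT (blue) libraries. Symbols are replicates 1 to 3 and bars are mean ± SD. The heavy chain COCSUDRAFT_14688 and the enkurin domain gene COCSUDRAFT_16080 lie near 0 in WT and at 34.9 to 64.9 CPM and 5.10 to 8.80 CPM in the OX-labelled libraries.

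The outer arm dynein heavy chain beta, COCSUDRAFT_14688, is in other algae a motor subunit that hydrolyses ATP to slide neighbouring doublets. It had 34.9, 40.8 and 64.9 CPM in OX-labelled replicates 1 to 3, against 0.603, 1.05 and 2.53 CPM in WT replicates 1 to 3. The lowest OX-labelled library thus held more than the highest WT library, and within each group replicate 3 was the highest. The group means were 46.9 ± 15.9 CPM in the OX-labelled libraries and 1.40 ± 1.01 CPM in WT (SD, n = 3 each). In raw reads this was 618 counts over the OX-labelled libraries and 18 over WT, a ratio of 34.7 with a 95% exact interval of 21.8 to 58.9 that covers counting error only. The fitted log2 fold change was 5.10 (SE 0.42), with rank 10 from the top among the tested genes. WT replicate 3 held 10 of the 18 WT counts, and the ratio was 55.5 (28.0 to 129) without that library. Without OX-labelled replicate 3 the ratio was 28.6 (17.8 to 48.8).

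The outer arm dynein light chain 1, COCSUDRAFT_15003, is named after a leucine-rich repeat protein that in Chlamydomonas binds the motor domain of the gamma heavy chain. It had 19.0, 12.6 and 12.6 CPM in the OX-labelled libraries, against 9.65, 9.27 and 10.6 CPM in WT. Replicate 1 was the highest of the OX-labelled libraries, and the groups did not overlap. The log2 fold change was 0.59 (SE 0.26), and 0.35 without OX-labelled replicate 1.

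The other genes with outer arm names, apart from light chain 1, were at a few counts in both groups. The files listed 8 genes with such names, of which 6 are not in the set and were named here after their values were seen. The gamma heavy chain COCSUDRAFT_12377 had 4 counts over the 3 OX-labelled libraries and 3 over the 3 WT libraries, with 0 counts in 1 OX-labelled and in 2 WT libraries. The intermediate chain 2 gene COCSUDRAFT_16047, which in Chlamydomonas belongs to the base of the arm, had 5 counts in the OX-labelled libraries and 11 in WT. The light chain 2 gene COCSUDRAFT_37637 had 6 counts in the OX-labelled libraries and 10 in WT. The docking complex subunit 3 gene COCSUDRAFT_34764, named for the complex that fixes the arm on the doublet, had 9 counts in the OX-labelled libraries and 10 in WT. A further pair of light chain 1 names, COCSUDRAFT_17495 and COCSUDRAFT_17982, had 1 and 0 counts in the OX-labelled libraries and 0 and 2 in WT.

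Summed, these 6 genes had 6, 12 and 7 counts in OX-labelled replicates 1 to 3, against 21, 7 and 8 in WT replicates 1 to 3. The groups overlapped, and none of the 6 genes passed the filter on low counts. Fitted without the filter, 0 of the 6 were called by edgeR in either direction, and 0 had an unadjusted p under 0.05. Their summed ratio, OX-labelled over WT, was 0.701 with a 95% exact counting interval of 0.404 to 1.20. WT replicate 1 held 21 of the 36 WT counts, and without it the ratio was 1.07 (0.543 to 2.19), so the direction rests on that library. Both intervals cover counting error of the sum only, and neither the single genes nor the spread between cultures. Since the 6 genes were named after their values were seen, their ratio is no test of whether they rose with the heavy chain. Of all reads on outer arm names, the heavy chain beta held 63.3%, 72.8% and 81.9% in OX-labelled replicates 1 to 3, against 4.17%, 8.93% and 16.7% in WT replicates 1 to 3. These shares take no account of gene length, and the heavy chain beta spans 33683 bases, against 2433 for light chain 1 COCSUDRAFT_15003. Per kilobase of span, introns included, the heavy chain beta averaged 1.39 CPM in the OX-labelled libraries and this light chain 1 averaged 6.05. No source used here says how reads that match several genes were counted, and no sequences of these genes were used to look for shared stretches.

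**Figure D2:**
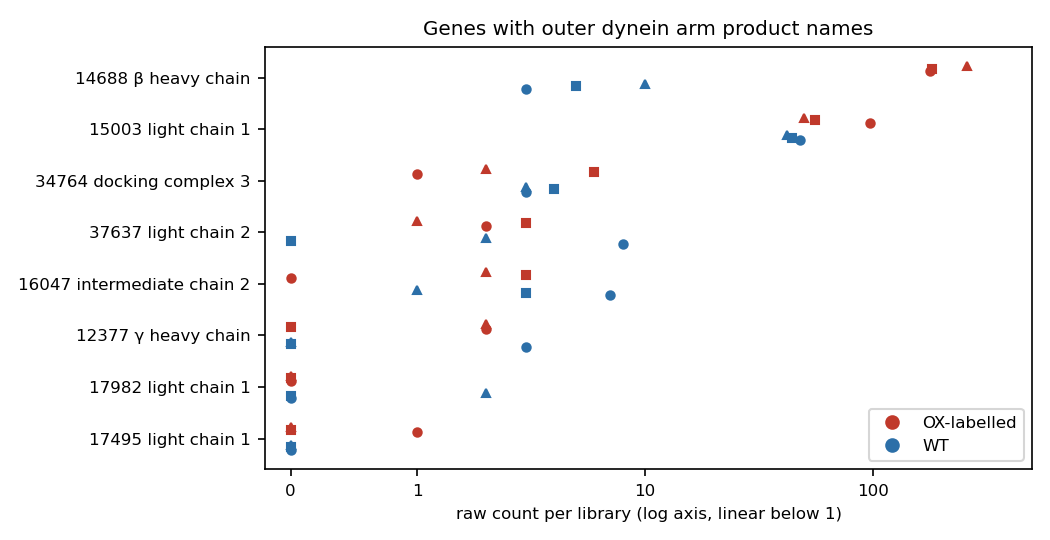
Raw counts per library (horizontal log axis, linear below 1) of the 8 genes with outer dynein arm product names, in OX-labelled (red) and WT (blue) libraries, with circle, square and triangle for replicates 1 to 3. The heavy chain beta COCSUDRAFT_14688 holds 178 to 258 counts in the OX-labelled libraries and 3 to 10 in WT, while 6 of the other genes hold at most 8 counts in any library.

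The second large difference was that of the enkurin domain gene COCSUDRAFT_16080. Enkurin is known in mammals as a protein of sperm flagella that binds calmodulin. The gene had 26, 28 and 35 counts in OX-labelled replicates 1 to 3, which is 5.10, 6.28 and 8.80 CPM. WT replicate 1 held 2 counts, or 0.402 CPM, and WT replicates 2 and 3 held 0. The ratio of summed counts was 45.0 (95% exact counting interval 12.1 to 377), and the fitted log2 fold change was 5.27 (SE 0.69). The 2 WT counts are under the floor of 3 counts and come from 1 library, so the size of these values is uncertain. Without WT replicate 1 the WT group was at 0, and the gene was at least 19.1-fold higher in the OX-labelled libraries, with the floor set at 3 counts in the WT libraries together. Without WT replicate 2 the ratio was 29.3 (7.89 to 246), and without OX-labelled replicate 3 it was 38.6 (10.2 to 327).

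The second gene with this product name, COCSUDRAFT_56406, was at similar levels in both groups. It had 34.7, 19.3 and 29.7 CPM in the OX-labelled libraries, against 18.1, 22.5 and 29.3 CPM in WT. The groups overlapped, with OX-labelled replicates 1 and 3 above all WT libraries and replicate 2 within the WT range. The log2 fold change was 0.26 (SE 0.26). The sequences of both enkurin domain genes were not compared.

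The deflagellation inducible protein gene, COCSUDRAFT_53983, is named after a small microtubule-associated protein of Chlamydomonas whose level goes up after the flagella are shed. It had 46.5, 46.9 and 39.7 CPM in the OX-labelled libraries, against 23.3, 26.3 and 22.3 CPM in WT. The groups did not overlap, and the spread within each was small beside the gap between them. The means were 44.4 ± 4.01 CPM in the OX-labelled libraries and 24.0 ± 2.11 CPM in WT (SD, n = 3 each), a log2 fold change of 0.89 (SE 0.19).

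The IFT122 homolog, COCSUDRAFT_17763, is named after a subunit of the complex that carries cargo from the ciliary tip back to the base. It had 3.53, 4.26 and 4.02 CPM in the OX-labelled libraries, against 2.01, 3.16 and 3.79 CPM in WT. The groups overlapped, and the log2 fold change was 0.41 (SE 0.38). It was the only listed gene with an intraflagellar transport name, and the numbers of listed genes named for the Bardet-Biedl complex, radial spokes, tektin, tectonic, hydin or inner dynein arms were 0. The gene names were given by the files and annotate sequence likeness only, so genes of these kinds with other names would not be counted.

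The 4 flagellar associated protein genes are named after proteins found in isolated flagella of other algae, and the name gives no role. COCSUDRAFT_31489 had 25.1, 22.6 and 22.6 CPM in the OX-labelled libraries, against 12.7, 17.5 and 20.5 CPM in WT (log2 fold change 0.48, SE 0.23). Its groups did not overlap, with WT replicate 3 the nearest to the OX-labelled libraries. COCSUDRAFT_34449 had 84.3, 71.7 and 72.7 CPM in the OX-labelled libraries, against 68.2, 75.4 and 67.0 CPM in WT (log2 fold change 0.12, SE 0.17). COCSUDRAFT_27743 had 198, 152 and 152 CPM in the OX-labelled libraries, against 152, 169 and 146 CPM in WT (log2 fold change 0.10, SE 0.18), and its log2 fold change was -0.040 without OX-labelled replicate 1. Both of these genes overlapped between the groups, and the lower OX-labelled libraries lay within the WT range.

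COCSUDRAFT_53086 was the most abundant of the 10 and the most uneven among the OX-labelled libraries. It had 169, 275 and 376 CPM in OX-labelled replicates 1 to 3, against 265, 255 and 248 CPM in WT replicates 1 to 3. The WT libraries lay within a narrow range (coefficient of variation 3.46%), and the OX-labelled libraries lay on both sides of it (37.9%). The log2 fold change was 0.093 (SE 0.25), and -0.21 without OX-labelled replicate 3. Among the OX-labelled libraries, replicate 1 held the highest level of 5 of the 10 genes, replicate 2 of 2 and replicate 3 of 3, and the part of the library in these values was not tested.

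Levels were compared between genes per kilobase of annotated gene span, which includes introns and so understates genes rich in them. In the OX-labelled libraries COCSUDRAFT_53086 averaged 43.7 CPM per kb, COCSUDRAFT_53983 35.0, COCSUDRAFT_34449 31.9 and COCSUDRAFT_27743 31.5, and the ranges over libraries of neighbours in this order overlapped. COCSUDRAFT_56406 (18.9 CPM per kb), COCSUDRAFT_16080 (11.0), COCSUDRAFT_31489 (7.97) and COCSUDRAFT_15003 (6.05) came next, again with overlapping ranges between neighbours. COCSUDRAFT_14688 averaged 1.39 CPM per kb over a span of 33683 bases and COCSUDRAFT_17763 averaged 0.572 CPM per kb, both apart from their neighbours in the order.

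In WT the order began with COCSUDRAFT_53086 (40.9 CPM per kb), whose libraries lay above those of COCSUDRAFT_34449 and COCSUDRAFT_27743 (both 29.4). The dynein heavy chain and the enkurin domain gene COCSUDRAFT_16080 were the last in WT, with 0.0414 and 0.219 CPM per kb, and with the transport gene COCSUDRAFT_17763 (0.434) each overlapped its neighbour in the order. By this measure COCSUDRAFT_16080 stood above 41.9% of the 9490 listed genes in the OX-labelled libraries and above 6.24% in WT. The heavy chain stood above 10.4% in the OX-labelled libraries and above 3.30% in WT. Its level per length was thus low in both groups.

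**Figure D3:**
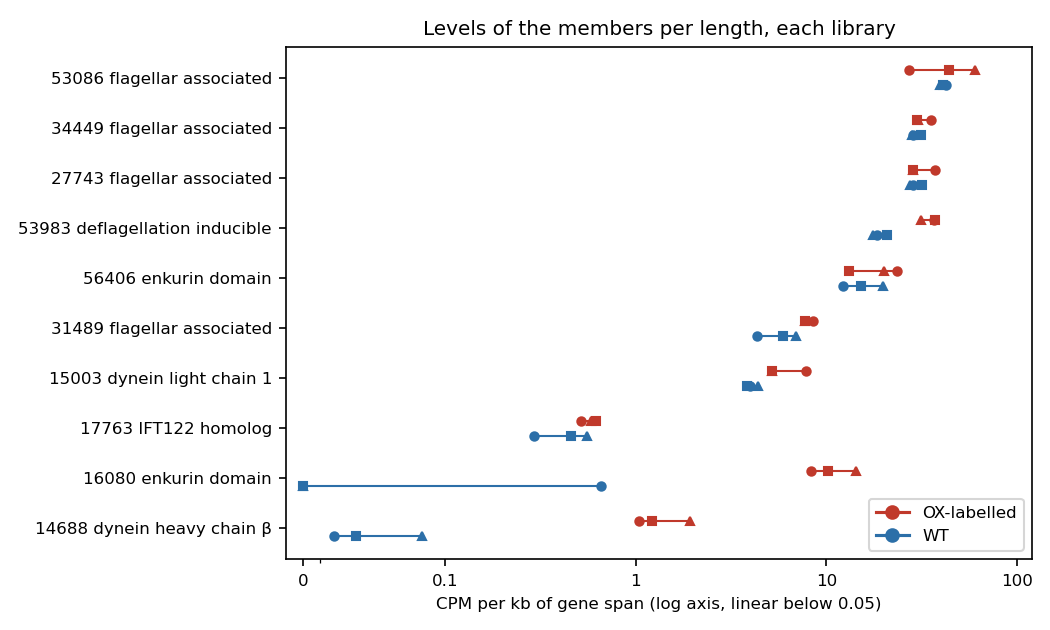
Level per kilobase of gene span (CPM per kb, horizontal log axis, linear below 0.05) of the 10 genes in each OX-labelled (red) and WT (blue) library, with lines over the range of a group. The order runs by the WT mean. COCSUDRAFT_14688 and COCSUDRAFT_16080 are at the bottom in WT, and COCSUDRAFT_16080 reaches 8.33 to 14.4 CPM per kb in the OX-labelled libraries.

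Other genes with names of the cilium, of microtubules or of gametes and meiosis were listed by product name and tested in the fit over all genes. Of 48 such genes 30 passed the filter on low counts. Of these 30, 12 rose, none fell and 18 did not pass (edgeR, adjusted p under 0.05). Over all tested genes 15.6% passed as higher and 8.98% as lower. The 12 were 5 kinesins, 4 tubulin genes, 2 basal body and centriole genes and 1 meiosis gene. None of the 12 came from the list of other cilium and dynein names, of which only 1 gene was tested. The DESeq2 Wald test called 14 of the 30 higher and 0 lower, where it called 1387 higher and 903 lower of 8575 tested genes. Limma-voom called 13 higher and 0 lower, where it called 1275 higher and 804 lower of 8575. The median log2 fold change of the 30 genes in edgeR was 0.74, beside -0.0028 over all tested genes. Leaving out OX-labelled replicate 3 gave 13 higher genes, where 18.9% of all tested genes were higher. Leaving out WT replicate 1 gave 4, where 8.54% of all tested genes were, and leaving out WT replicate 2 gave 8, where 10.1% were.

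Among 9 other genes with a cilium or dynein name, 7 had at most 10 counts in each group, as had 604 of all 9490 genes, and 1 passed the filter on low counts. Fitted without the filter, 0 of the 9 were called by edgeR in either direction, and 0 had an unadjusted p under 0.05. The gene that passed the filter was the dynein light chain COCSUDRAFT_25603, which by its name belongs to no particular arm. It had 182, 161 and 130 CPM in the OX-labelled libraries, against 116, 141 and 128 CPM in WT, and did not pass (log2 fold change 0.30, SE 0.19, edgeR adjusted p = 0.262).

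Of 7 basal body and centriole genes all were tested, 2 rose and 5 did not pass, beside 15.6% higher among all tested genes, with a median of 0.36. Centrin, COCSUDRAFT_48977, a calcium-binding protein of basal bodies and spindle poles, rose to 182 ± 20.3 CPM in the OX-labelled libraries, against 94.0 ± 28.1 CPM in WT (SD, n = 3 each; log2 fold change 0.95, SE 0.23, edgeR adjusted p = 0.0112). The gene with an SAS-6 domain, COCSUDRAFT_1459, named for the protein of the centriole cartwheel, had 14.5, 12.1 and 28.7 CPM in the OX-labelled libraries, against 5.03, 9.69 and 7.84 CPM in WT (log2 fold change 1.29, SE 0.37, edgeR adjusted p = 0.0239). The call of centrin was lost without WT replicate 1 (edgeR adjusted p = 0.0609). That of the SAS-6 domain gene was lost without WT replicate 1 (edgeR adjusted p = 0.122) and without WT replicate 3 (edgeR adjusted p = 0.0808).

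Of 7 tubulin genes, which code for the subunits of all microtubules and for helpers of their folding, 4 rose and 3 did not pass, beside 15.6% higher among all tested genes, with a median of 0.56. The gamma-tubulin gene COCSUDRAFT_14036, which starts new microtubules, rose to 169 ± 22.4 CPM in the OX-labelled libraries, against 53.5 ± 11.5 CPM in WT (SD, n = 3 each; log2 fold change 1.66, SE 0.21, edgeR adjusted p = 0.000296). The alpha-tubulin gene COCSUDRAFT_31682 rose to 645, 646 and 687 CPM in the OX-labelled libraries, against 267, 371 and 312 CPM in WT (log2 fold change 1.06, edgeR adjusted p = 0.00172). The beta-tubulin gene COCSUDRAFT_35065 rose to 225, 202 and 251 CPM in the OX-labelled libraries, against 109, 160 and 138 CPM in WT (log2 fold change 0.74, edgeR adjusted p = 0.016). This call was lost without WT replicate 1 (edgeR adjusted p = 0.118) and without WT replicate 3 (edgeR adjusted p = 0.0729). The count of tubulin genes that rose was 2 without WT replicate 1, where 8.54% of all tested genes rose, and 2 without WT replicate 3, where 10% did.

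Of 23 kinesin genes, motors that walk along microtubules in spindles, cytoplasm and cilia, 14 were tested, 5 rose and 9 did not pass, beside 15.6% higher among all tested genes. All 14 fitted values were above 0, where 4269 of all 8575 tested genes were, and the median of the 14 was 0.77. Kinesins that failed the filter on low counts are outside these values, and their counts went both ways. COCSUDRAFT_12590 had 36 counts over the OX-labelled libraries and 10 over WT, and COCSUDRAFT_15326 had 0 and 3. COCSUDRAFT_45765 rose to 62.0, 44.8 and 87.2 CPM in the OX-labelled libraries, against 23.7, 27.6 and 32.1 CPM in WT (log2 fold change 1.22, SE 0.25, edgeR adjusted p = 0.00501). COCSUDRAFT_14339 rose by 1.51 on the log2 scale (edgeR adjusted p = 0.0124, or 0.0716 without WT replicate 1). COCSUDRAFT_15452 rose by 1.20 (edgeR adjusted p = 0.0263), and its call was lost without OX-labelled replicate 3 (edgeR adjusted p = 0.0552) or without any of the WT libraries (edgeR adjusted p of 0.0649 to 0.118). The names do not tell which kinesins belong to cilia. The count of kinesins that rose was 3 without OX-labelled replicate 1, where 11.6% of all tested genes rose. It was 1 without WT replicate 1, where 8.54% did, and 2 without WT replicate 2, where 10.1% did.

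Flagella of many green algae are carried by gametes or zoospores, so names of gametes and meiosis were listed too, and 2 genes had one. HAP2-GCS1, COCSUDRAFT_39583, the fusion protein of gametes in other algae and plants, had 2 counts over the OX-labelled libraries and 2 over WT, which is under the floor of 3 counts in both groups. Meiotic nuclear division protein 1, COCSUDRAFT_62007, which acts in meiotic recombination in yeast, rose to 15.9, 9.19 and 7.54 CPM in the OX-labelled libraries, against 2.82, 3.79 and 2.02 CPM in WT (log2 fold change 1.91, SE 0.39, edgeR adjusted p = 0.00447).

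**Figure D4:**
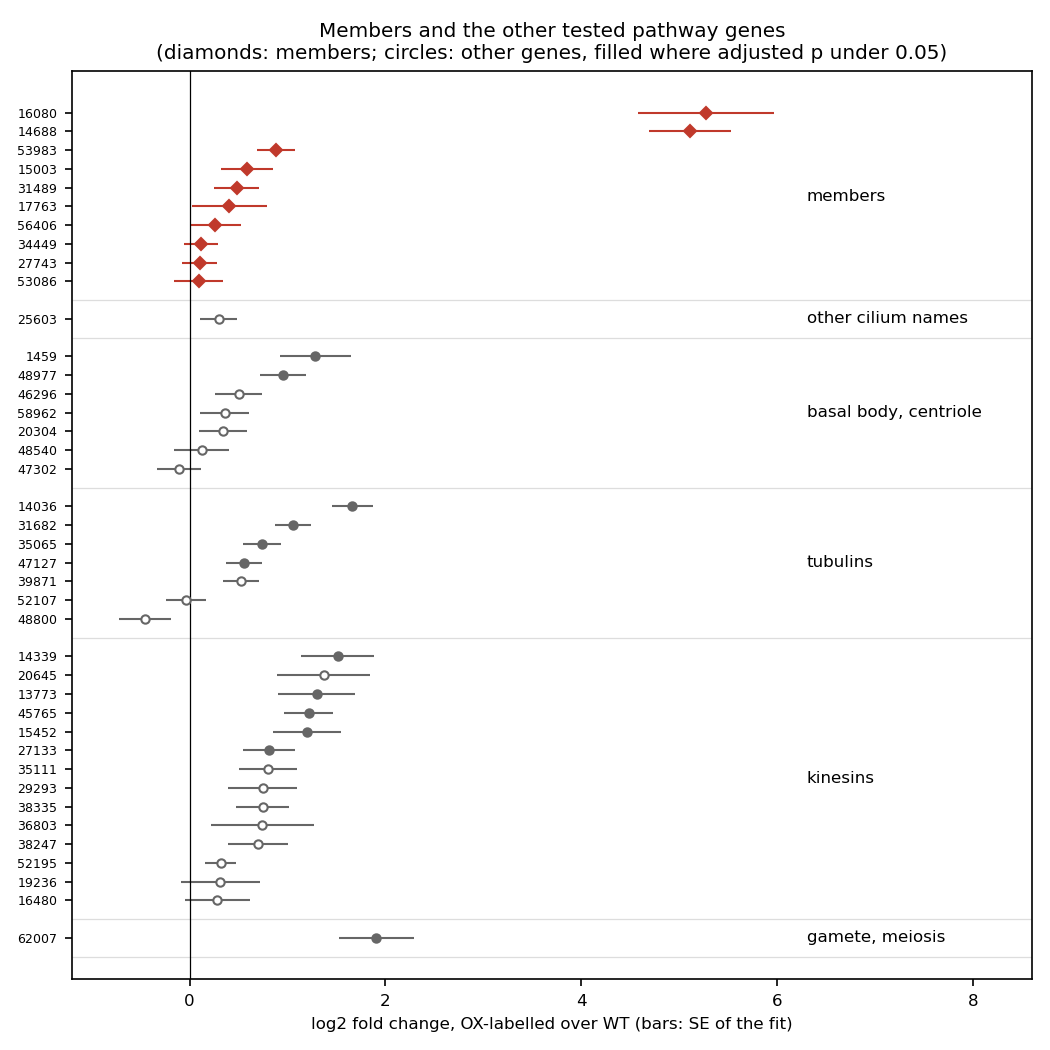
Log2 fold change, OX-labelled over WT, with its SE, of the 10 cilium-named genes (red diamonds) and of the other listed genes that were tested (grey circles). The circles are genes with names of cilia, microtubules, gametes or meiosis, filled where the adjusted p over all genes was under 0.05. COCSUDRAFT_16080 and COCSUDRAFT_14688 lie at 5.27 and 5.10, and the other 8 cilium-named genes lie between 0.093 and 0.89.

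Each gene was also set beside its neighbours along the scaffold. The 10 nearest tested genes on each side were taken from the order of the RefSeq annotation. Over all tested genes 15.6% were called higher and 8.98% lower. The heavy chain COCSUDRAFT_14688 is the first tested gene of its scaffold. The 10 genes after it had log2 fold changes of -0.98 to 0.45 with a median of -0.027, with 0 called higher and 2 lower. The 20 neighbours of the enkurin domain gene COCSUDRAFT_16080 ranged from -0.91 to 1.12 with a median of 0.073, with 2 called higher and 2 lower. Among them, 2 tested genes away, was COCSUDRAFT_16128, the myocyte enhancer factor 2D gene, whose log2 fold change of 0.86 did not pass. Any link between COCSUDRAFT_16128 and COCSUDRAFT_16080 was not tested. The neighbours of the deflagellation inducible gene COCSUDRAFT_53983 ranged from -0.85 to 1.61 with a median of -0.089, with 3 called higher and 3 lower. The 3 called higher had larger log2 fold changes than its own 0.89. The heavy chain, COCSUDRAFT_16080 and COCSUDRAFT_53983 thus lay among neighbours whose median was near 0, and COCSUDRAFT_53983 lay within the range of its neighbours.

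Around the other 7 cilium-named genes the median of the neighbours lay between -0.29 for COCSUDRAFT_34449 and 0.21 for COCSUDRAFT_27743. The 20 neighbours of gamma-tubulin COCSUDRAFT_14036 had a median of 0.90 with 11 called higher. Those of the kinesin COCSUDRAFT_14339 had a median of 1.18 and those of the meiotic gene COCSUDRAFT_62007 a median of 0.90. Around COCSUDRAFT_14339 and around COCSUDRAFT_62007, 17 neighbours were called higher, where 15.6% of all tested genes were. Around centrin the median was -0.059, around alpha-tubulin COCSUDRAFT_31682 it was 0.20 and around the kinesin COCSUDRAFT_45765 it was 0.16. The part of these neighbourhoods in the changes of those genes was not tested. The set is spread over 9 scaffolds, with the dynein heavy chain and light chain 1 on the same scaffold. The span of COCSUDRAFT_27743 overlaps that of COCSUDRAFT_52742, an uncharacterized gene with a log2 fold change of 0.19 (SE 0.22), and reads of that stretch may be shared, since no source used here gives the strand setting of the counting. The span of the heavy chain overlaps a tRNA gene, which was not analysed here.

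**Figure D5:**
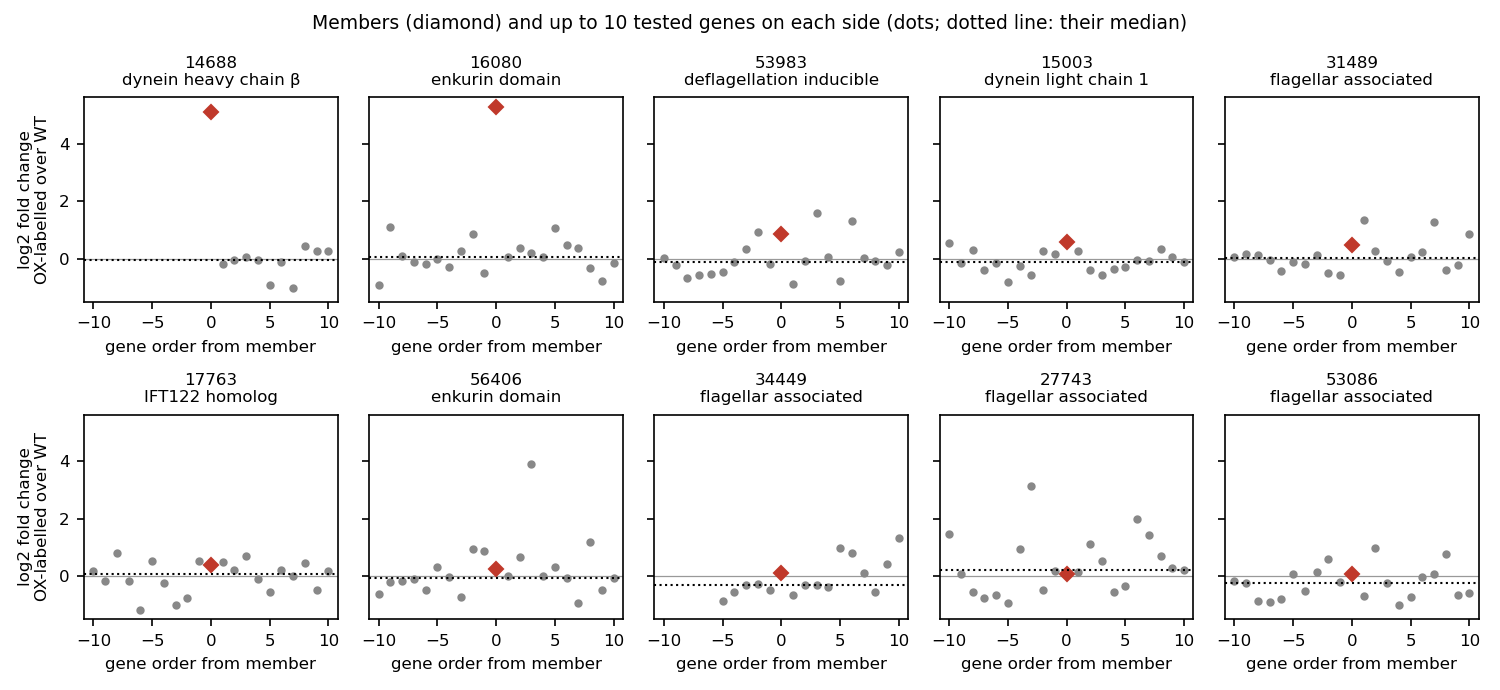
Log2 fold change, OX-labelled over WT, of each cilium-named gene (red diamond) and of up to 10 tested genes on each side (grey dots), by gene order along the scaffold. Dotted lines are medians of the neighbours, which lie between -0.29 and 0.21, while COCSUDRAFT_14688 and COCSUDRAFT_16080 lie at 5.10 and 5.27.

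The genes whose levels followed the dynein heavy chain most closely were sought over the 6 libraries, by Pearson's r of log2(CPM + 2) among 8364 genes whose higher group averaged at least 5 CPM. This r is a description over libraries that share the group difference, and 397 genes had an r above 0.95. The 5 highest were COCSUDRAFT_28274 (0.999), COCSUDRAFT_44269 (0.998), COCSUDRAFT_40946 (0.998), COCSUDRAFT_68228 (0.998) and COCSUDRAFT_40953 (0.997). COCSUDRAFT_28274, a glucose-1-phosphate adenylyltransferase, the enzyme that makes the ADP-glucose used for starch, had 391, 400 and 469 CPM in the OX-labelled libraries, against 132, 139 and 155 CPM in WT. COCSUDRAFT_44269, named a hexosyltransferase, had 18.6, 22.0 and 24.4 CPM in the OX-labelled libraries, against 1.81, 2.32 and 3.29 CPM in WT. In both groups replicate 1 held the lowest and replicate 3 the highest level of COCSUDRAFT_28274 and of COCSUDRAFT_44269, as of the heavy chain. COCSUDRAFT_40946 and COCSUDRAFT_68228 kept this order too, and COCSUDRAFT_40953 did not, with 124, 123 and 156 CPM in OX-labelled replicates 1 to 3. The genes were picked by correlation over these libraries, so a shared order is no further likeness. The order of the heavy chain in WT rests on 3, 5 and 10 counts. None of the 5 had a cilium name, 2 were uncharacterized and 1 had an AAA domain name. Neighbours of COCSUDRAFT_28274, COCSUDRAFT_40946 and COCSUDRAFT_40953 had median log2 fold changes of 1.16, 1.20 and 1.22. Those of COCSUDRAFT_68228 and COCSUDRAFT_44269 had medians of 0.50 and -0.23.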

How the data were processed

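The authors deposited raw counts per gene, 1 file for each of 6 libraries. Libraries came from Trizol-extracted total RNA and a directional kit, per the labels' protocols. Per the submitters' processing notes FastQC, Trim Galore, HISAT and HTSeq were used. No source used here gives the genome build, tool versions or strand setting. The 10 genes and the name lists were chosen with earlier results of these data known.

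Genes that passed filterByExpr (8575) were scaled with TMM factors and tested by the robust quasi-likelihood test of edgeR 4.0.16 in R 4.3.3, with Benjamini-Hochberg adjustment over all tested genes and a threshold of 0.05. CPM are TMM-scaled, SE was derived from the fitted log2 fold change and the F value, and the biological coefficient of variation was 19.8%. Alternatives used DESeq2 1.42.0 and limma 3.58.1. The scripts were tested on simulated data. No 2 libraries agreed within sampling noise (lowest chi-square per degree of freedom 7.08). All 9490 locus tags matched RefSeq assembly GCF_000258705.1, used for gene span and order, since the authors' build is not given. Named genes were the 10 genes, the MADS-box gene, up to 3 called genes per direction and list by lowest p, or else the most abundant, and the 5 genes most like the heavy chain. The other outer arm names, HAP2-GCS1 and COCSUDRAFT_16128 were added after their values were seen.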

Additional observations from a re-analysis of the deposited data

How the results depend on the processing

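Over 12 alternatives, namely other scaling factors (DESeq2 size factors, library size only), no filter on low counts, the DESeq2 Wald test, limma-voom, a block for the replicate number and each library left out, the log2 fold change of COCSUDRAFT_14688 ranged from 4.69 to 5.75, and that of COCSUDRAFT_53983 from 0.80 to 0.96. That of COCSUDRAFT_16080 ranged from 4.73 to 5.52 in the 11 alternatives that keep its 2 WT counts, a number under the floor of 3. Without WT replicate 1, with WT at 0, the gene was at least 19.1-fold higher. Leaving out 1 library gave -0.040 (without OX-labelled replicate 1) to 0.17 for COCSUDRAFT_27743 and -0.21 (without OX-labelled replicate 3) to 0.35 for COCSUDRAFT_53086, which turned the sign in those fits. Over all genes, 1337 were called higher and 770 lower, and leaving out 1 library gave 737 to 1627 higher and 313 to 1232 lower. Each such fit has fewer libraries. Among the other listed genes, of cilia, microtubules, gametes and meiosis, leaving out 1 library gave 4 to 13 higher, against 12. None was called lower in any alternative. With library size only, 53.4% of calls over all genes were higher, against 63.5%.

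No source used here says that replicate numbers pair cultures, so the replicate number was not taken as a pairing. Deviations from the group mean correlated at -0.16, 0.15 and 0.06 between same-numbered libraries of both groups. Between other libraries of the 2 groups they correlated at -0.31 to 0.28, so these values cannot decide on a pairing. With the replicate number as a block in edgeR, 1297 genes were called higher and 801 lower. Neighbourhood medians over 5 genes on each side were -0.29 for COCSUDRAFT_15003, 0.14 for COCSUDRAFT_16080 and 0.32 for COCSUDRAFT_56406, and over 20 on each side -0.094 for COCSUDRAFT_16080 and -0.10 for COCSUDRAFT_17763. The cause of these shifts was not tested. Depth limits the genes at a few counts, where a rise of a few counts would not be seen.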
